A study of Homo sapiens with 26 samples.

Results

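The WT 16HBE14o- libraries of cells grown on Transwells in normal glucose were compared with those that the labels call not polarized, over all genes of the deposited count table. The rule took 6 Transwell libraries and 3 not polarized libraries, 9 of the 26 libraries in the series, by their labels alone and by no measured value. 16HBE14o- is an immortalised line of human bronchial epithelial cells, here with WT CFTR in every library of both groups. Transwell cultures stood in medium with 5.5 mM glucose for 7 days with fresh medium every day, and RNA of 2 wells was pooled per sample. The not polarized group is also labelled as WT CFTR and normal glucose, and its samples carry the same protocol text, which describes plating at 250000 cells per well. How the not polarized cells were in fact grown is therefore not given separately, and culture surface, density, time and medium cannot be told apart in what follows. Nor do the labels state a batch, so a batch that differed between the groups cannot be told apart from culture. All libraries come from 1 cell line, the labels do not say that they are separate cultures, so a p-value here covers only the spread from library to library, which may be technical.

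An epithelium becomes polarized when its cells join into a sealed sheet, with tight junctions at the border between an apical side that faces the air space and a basolateral side that rests on matrix. The Crumbs, Par and Scribble complexes mark out the sides, adherens junctions and desmosomes hold neighbours together, and integrins tie the sheet to a basement membrane of laminins and collagens. Porous Transwell filters let airway cells be fed from below and build such sheets, and contact between crowded cells is known to quiet growth signals such as ERK and YAP.

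The 9 libraries held 15274958 to 20413839 counts each. Mitochondrially encoded genes took 2.44 to 3.59% of counts on Transwells and 1.73 to 1.75% in not polarized cells, and cytosolic ribosomal protein genes took 2.72 to 4.13% against 4.43 to 4.63%. Among Transwell libraries, numbers 1 to 3 lay at 3.39 to 4.13% and numbers 4 to 6 at 2.72 to 2.89% for ribosomal protein genes, and the second principal component, with 11.4% of the variance, separated the same sets. The first component, with 62.1%, separated Transwell from not polarized libraries. Epithelial identity was plain in both groups. CDH1 (E-cadherin) stood at 937 against 720.4 CPM, EPCAM at 557 against 464 CPM and KRT8 at 2100.2 against 2343 CPM on average, Transwell first, while the mesenchymal markers VIM and CDH2 and the basal cell factor TP63 did not pass the low-count filter. The counting tool and strand setting are not given, so a low count of a single gene need not mean little RNA. Of the defining markers of mature airway cell types, MUC5AC (goblet cells) had 0 reads in all 9 libraries, and FOXJ1 (ciliated cells) stood at 0.484 against 1.66 CPM.

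Of 58735 genes in the table, 16105 passed the filter, and 8047 (50% of those tested) differed at an adjusted p under 0.05 in edgeR's quasi-likelihood test: 4188 (26%) were higher and 3859 (24%) lower on Transwells. Among 13167 protein-coding genes 3422 were higher and 3538 lower, and among the other 2938 genes 766 were higher and 321 lower, 273 and 64 of them labelled antisense. The part of RNA or library quality in that balance was not tested. A count of called members in any gene group below is to be read against these shares. The median size of a called difference was 0.56 on the log2 scale. Differences of at least 2-fold were called for 1419 genes higher (8.81%) and 528 lower (3.28%), and of at least 4-fold for 312 higher (1.94%) and 89 lower (0.553%). The libraries of the 2 groups did not overlap for 7492 genes (46.5%). The median log2 difference over all tested genes was 0.02, and each gene group's median is given beside that value. Levels below are CPM (counts scaled to library size, with TMM factors), and differences are log2 values of Transwell over not polarized with the standard error (SE) of the fit. RNA came from whole cultures, in which fewer cells of a type and less RNA per cell cannot be told apart.

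**Figure D1:**
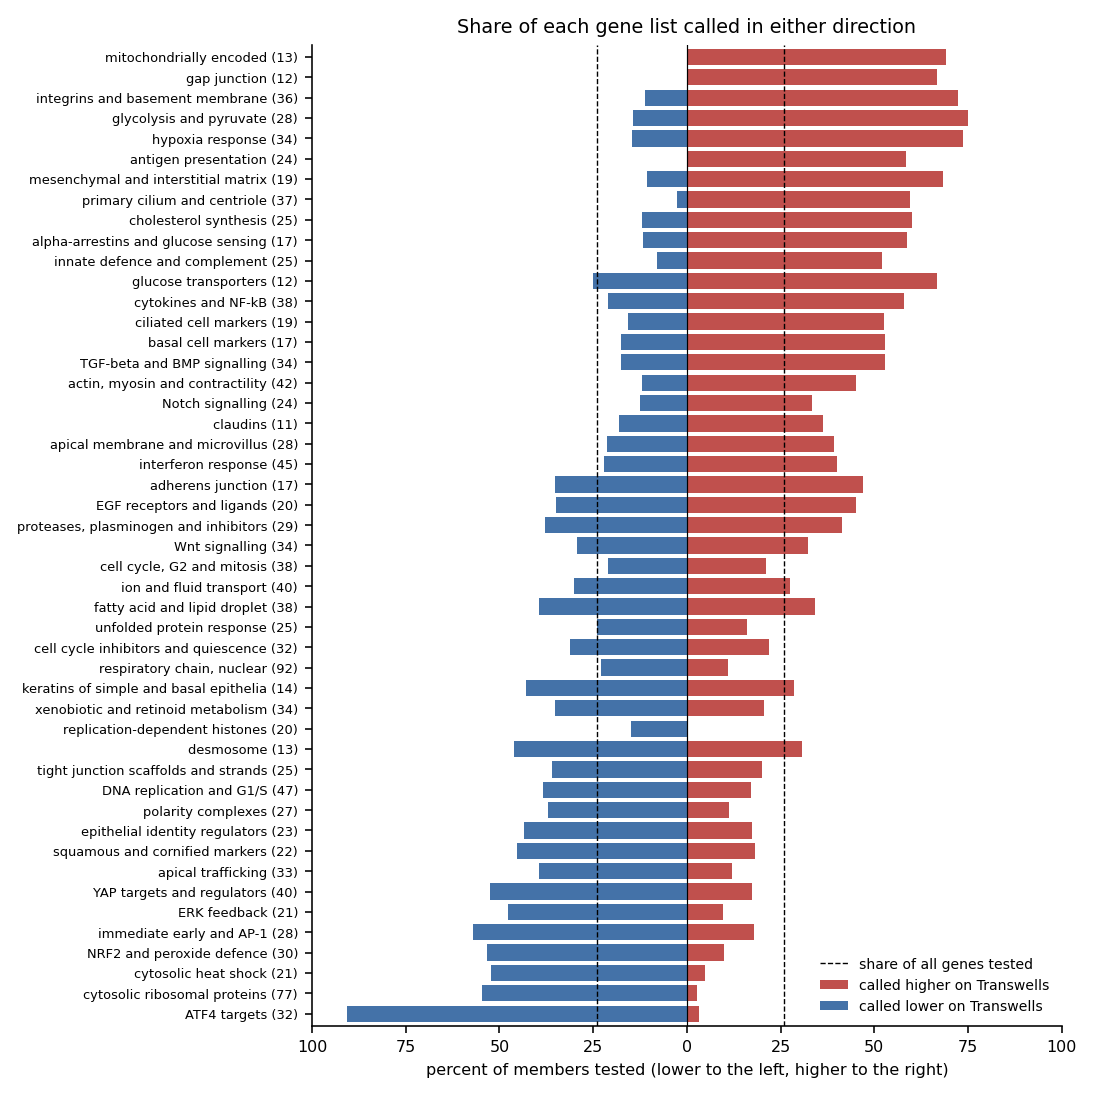
Percent of the tested members of each gene list called higher (red, to the right) or lower (blue, to the left) on Transwells at an adjusted p under 0.05, with the number tested in brackets, for lists with at least 10 tested members. Dashed lines mark the share of all tested genes, 26% higher and 24% lower. ATF4 targets stand at the lower end, and mitochondrially encoded, gap junction, matrix, glycolysis and hypoxia genes at the upper end.

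Of the 15 highest and 15 lowest protein-coding genes (called, with 5 CPM or more on average in either group, and no overlap between libraries), EDN2 led the higher side. EDN2 encodes endothelin 2, a vasoactive peptide, and it was nearly silent in not polarized cells, with 3, 1 and 3 reads there, against 8.22 to 15 CPM (median 9.55) on Transwells. The ratio of its levels was 78.1, with a counting interval of 37.8 to 195 that covers counting error only. VIT (vitrin, a matrix protein) had 3, 4 and 1 reads in not polarized cells and a ratio of 52.4 (26.5 to 122). NPR1, the receptor for natriuretic peptides, followed with 12, 11 and 4 reads and a ratio of 36.7 (25.2 to 55.9). Others of the highest 15 were better measured. IGFBP3, the main carrier of insulin-like growth factors in plasma (ENSG00000146674, chr7:45912245-45921874 on GRCh38, minus strand), lay at 400.1, 391 and 389 CPM in not polarized cells and at 8588 to 9940.2 CPM (median 9068) on Transwells, 23.5-fold higher (log2 4.56 ± 0.087, adjusted p = 3.37e-13). CEMIP, which depolymerises hyaluronan, was 15.5-fold higher (21.5 against 1.39 CPM). TMEM45A was 28.1-fold higher (368 against 13.1 CPM), and PDZK1IP1, a small membrane protein that binds PDZ scaffolds, 26.8-fold (25.9 against 0.971 CPM). The remaining genes of the 15 were EGLN3, ANGPTL4, CCL2, TXNIP and ARRDC3, described with their groups, with PPFIA4 (12.5-fold, 20.3 against 1.63 CPM). PPP2R2B and SEMA5B had few reads in not polarized cells, with ratios of 23.7 (counting interval 13.5 to 46.1; 2, 8 and 2 reads, and a log2 difference of 5.42 without not polarized library 2) and 15.6 (10.8 to 23.5).

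At the other end stood FOS and FOSB, also described with their group. DOCK4, an activator of small GTPases in migrating cells, was 9.42-fold lower on Transwells (1.22 against 11.6 CPM). SERPINE2, an inhibitor of thrombin and urokinase, lay at 4.3 to 5.7 CPM (median 4.78) on Transwells and at 42.4, 38.6 and 42.9 CPM in not polarized cells, 8.35-fold lower. PPARG, the adipogenic nuclear receptor, was 7.15-fold lower (0.963 against 6.9 CPM). NRP1, a co-receptor for semaphorins and VEGF, was 5.83-fold lower (1.05 against 6.1 CPM). XDH (xanthine dehydrogenase) was 5.81-fold lower (5.46 against 31.8 CPM), and SOX7 7.05-fold (3.22 against 23 CPM). The others of the lowest 15 were ANKRD1, PSAT1, CA2, DUSP6, MARCH4, EGR1 and NT5E, whose log2 differences ran from -3.01 for ANKRD1 to -2.47 for NT5E.

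**Figure D2:**
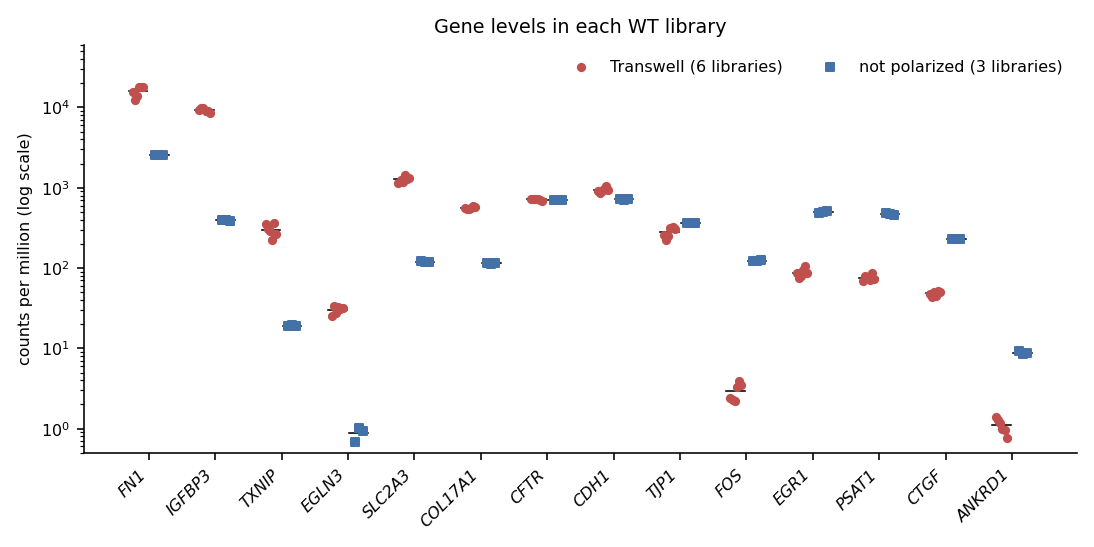
Level of 14 genes in each of the 6 Transwell (circles) and 3 not polarized (squares) libraries, in CPM on a log axis, with group means as bars. FN1, IGFBP3, TXNIP, EGLN3, SLC2A3, COL17A1 and CDH1 lie higher on Transwells with no overlap, TJP1, FOS, EGR1, PSAT1, CTGF and ANKRD1 lower with no overlap, and the CFTR libraries of both groups overlap.

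Tight junction strands are built by claudins and occludin and anchored to actin by scaffolds such as ZO-1 (TJP1) and cingulin (CGN). As a group, scaffold and strand genes were not higher on Transwells. Of 25 tested, 5 were higher and 9 lower, with a median log2 difference of -0.18 beside 0.02 for all genes. TJP1 lay at 223 to 329 CPM (median 281) on Transwells and at 360.03, 359 and 365 CPM in not polarized cells, 1.29-fold lower (log2 -0.37 ± 0.10, adjusted p = 0.00891). The Transwell libraries lay under all the others, but close to them. Cingulin fell further (CGN, log2 -0.45, 174 against 238 CPM), and its relative CGNL1 furthest, from a low level (log2 -1.51, 1.78 against 5.09 CPM). MAGI1 (log2 -0.66), AMOT (-0.36) and OCLN, occludin (-0.18, 137 against 155 CPM), were also lower. On the higher side stood the adhesion molecules of the junction: CXADR, the coxsackievirus receptor (log2 0.56, 73.8 against 49.97 CPM), and F11R, also called JAM-A (0.40, 252 against 191 CPM). OCLN lost its call without not polarized library 1 (adjusted p = 0.0875), and the count of higher members was 3 without Transwell library 3 or not polarized library 1 or 2, and 2 without not polarized library 3.

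Claudins, which set how tight and how ion-selective a junction is, split by member. Of 11 tested, 4 were higher and 2 lower, beside 26% and 24% of all tested genes. CLDN1, a sealing claudin, was 1.81-fold higher on Transwells, at 809 to 868 CPM (median 855) against 465, 469 and 464 CPM (log2 0.86 ± 0.057, adjusted p = 3.62e-08), with no overlap. CLDN3 (log2 0.78, 75.3 against 43.7 CPM), CLDN16 (0.68) and CLDN12 (0.25) were higher too, while CLDN9 (-0.54) and CLDN6 (-0.20, 115 against 131 CPM) were lower. CLDN6 lost its call, which left 1 lower claudin, without Transwell library 1 or 4 or without any 1 of the not polarized libraries (adjusted p between 0.0501 and 0.0895). CLDN4, abundant in airway sheets, was not called. Its libraries lay at 562 to 753 CPM (median 652) on Transwells and 734, 749 and 738 CPM in not polarized cells, a log2 difference of -0.17 ± 0.088 (adjusted p = 0.115). CLDN4 was lower without Transwell library 2 (log2 -0.22, adjusted p = 0.0255) and against Transwell numbers 4 to 6 alone (log2 -0.28, adjusted p = 7.91e-05).

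Genes of the polarity complexes moved little. Of 27 tested, 3 were higher and 10 lower, the median log2 difference was -0.06, and no called member differed by 2-fold. CRB3, the Crumbs protein of epithelia, was 1.54-fold higher, at 56.6 to 81.3 CPM (median 63.7) on Transwells against 43.3, 43.9 and 42.5 CPM (log2 0.62 ± 0.11, adjusted p = 3.11e-04). PARD6G (log2 0.76) and LIN7B (0.65), adaptors of the Par and Crumbs complexes, were the others. The lower members included PARD3, the Par3 scaffold (log2 -0.40, 29.9 against 39.4 CPM), atypical protein kinase C iota (PRKCI, -0.24), the lateral scaffold DLG1 (-0.45) and the Hippo activator NF2, or merlin (-0.53, 51.8 against 74.6 CPM).

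Adherens junction genes were divided, with 8 higher and 6 lower of 17 tested. E-cadherin, CDH1, lay at 869 to 1047 CPM (median 924) on Transwells and 727, 706 and 728 CPM in not polarized cells, 1.3-fold higher with no overlap (log2 0.38 ± 0.067, adjusted p = 3.49e-04). P-cadherin, CDH3, was 1.84-fold higher (896 against 486 CPM), and the nectins NECTIN2 and NECTIN4 were higher by log2 0.72 and 0.46. By contrast CDH4, or R-cadherin, was 3.32-fold lower (39.1 against 129.97 CPM), and the receptor phosphatase PTPRM 2.1-fold lower (71.2 against 150.05 CPM). The catenins were nearer to no change: CTNND1, p120, differed by log2 -0.28 and JUP, plakoglobin, by -0.24, both called. Desmosome genes likewise had 4 higher and 6 lower of 13, from DSC2 (log2 0.79, 111 against 64.1 CPM) to PKP2 (-0.40, 104 against 137 CPM), and 2 higher without any 1 of the not polarized libraries. Called genes of the gap junction list, which holds connexins and pannexins together, were all higher. Of 12 tested, 8 were higher and 0 lower, with a median of 0.51. They included the pannexins PANX1 (log2 1.18, 219 against 97 CPM) and PANX2 (0.98), and the connexin GJB2 (0.65).

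At the apical surface, microvilli are bundled and tethered by espin, protocadherin-family proteins and ezrin, and covered by membrane mucins. Here 11 of 28 tested members were higher and 6 lower. Some membrane mucins were among the higher ones: MUC1 was 2.17-fold higher (51.9 against 23.9 CPM), MUC4 1.56-fold (11.6 against 7.4 CPM) and MUC16 by log2 0.72 (49.96 against 30.2 CPM). However, MUC4 was not called with limma on log2 FPKM plus 1 (log2 0.18, adjusted p = 0.119) or plus 0.1 (log2 0.49, adjusted p = 0.112). MUC20 was not called (log2 -0.22, adjusted p = 0.42), and MUC13, MUC15 and MUC21 did not pass the filter. ESPN (espin) was 2.49-fold higher (36.1 against 14.5 CPM), MYO7B, a motor of microvillus tips, 3.63-fold from a low level (4.64 against 1.28 CPM), and CDHR5, a tip link protein, had a ratio of 5.43 with a counting interval of 2.84 to 11.6. The membrane-bound proteases matriptase (ST14, 1.88-fold, 402 against 214 CPM) and prostasin (PRSS8, 1.59-fold, 327 against 205 CPM), which process channels, were higher as well. PODXL, podocalyxin, an apical sialomucin, went the other way and was 2.99-fold lower, at 60.7 to 71.6 CPM (median 68.1) on Transwells against 195, 204 and 198 CPM. EZR, ezrin, was lower by log2 0.31 (1288 against 1592 CPM).

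Apical delivery genes were more often lower: 13 of 33 tested were lower and 4 higher, with a median log2 difference of -0.09. MAL, a raft protein of apical transport, was 2.26-fold lower (47 against 106 CPM), its relative MAL2 lower by log2 0.46 (871 against 1196 CPM), and MYO5B, the motor of apical recycling endosomes, 1.98-fold lower (5.98 against 11.9 CPM). STX3, the apical syntaxin, was lower by log2 0.64 (66.1 against 103 CPM). SYTL2, a tether of secretory vesicles, was the clearest exception, 2.04-fold higher (63.8 against 31.3 CPM).

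CFTR, the apical chloride and bicarbonate channel (ENSG00000001626, chr7:117465784-117715971, plus strand), did not pass the test. Its level was 680.2 to 729 CPM (median 719) on Transwells and 696, 698 and 704 CPM in not polarized cells, a log2 difference of 0.03 ± 0.055 (adjusted p = 0.666), and the libraries overlapped. Of 40 ion and fluid transport genes tested, with CFTR among them, 11 were higher and 12 lower. These shares are near the 26% and 24% of all tested genes. The anion exchangers SLC26A6 (1.94-fold, 20.01 against 10.3 CPM) and SLC4A2 (1.25-fold, 262 against 209.7 CPM) were higher. TRPV4, a calcium channel opened by osmotic swelling, was 2.18-fold higher (37 against 16.9 CPM), and TRPV6 2.83-fold from a low level (2.83 against 1.002 CPM). AQP3, the basolateral water and glycerol channel, was 4.01-fold lower, at 6.92 to 11.3 CPM (median 8.99) on Transwells against 34, 36.9 and 38.2 CPM. SGK1, the kinase that stabilises the epithelial sodium channel, was 3.61-fold lower (6.86 against 24.8 CPM), and ANO1, a calcium-activated chloride channel, 1.86-fold (34 against 63.2 CPM). CA2, carbonic anhydrase 2, was 5.98-fold lower, at 0.609 to 1.5 CPM (median 1.01) against 6.42, 6.71 and 6.27 CPM.

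The side that faces the matrix gave a more uniform picture. Of 36 tested integrin and basement membrane genes, 26 were higher and 4 lower on Transwells, with a median log2 difference of 0.55. The libraries did not overlap for 30 of them, beside 46.5% of all tested genes. COL17A1, the transmembrane collagen of hemidesmosomes, rose from 117, 113 and 115 CPM to 551 to 585 CPM (median 557), 4.89-fold (log2 2.29 ± 0.061, adjusted p = 5.94e-12). Its partner ITGB4, the beta-4 integrin of hemidesmosomes, was 2.75-fold higher (1609 against 586 CPM), and ITGA5, the alpha chain of the fibronectin receptor, 4.5-fold, at 349 to 376 CPM (median 355) against 78, 81.6 and 78.6 CPM. Perlecan (HSPG2) was 3.52-fold higher (901 against 256 CPM), agrin (AGRN) 2.57-fold (1921 against 746 CPM), COL7A1, the anchoring fibril collagen, 2.86-fold (102 against 35.5 CPM), and COL4A2 2.09-fold (844 against 404 CPM). LAMB3 and LAMA3, chains of laminin-332, went opposite ways, with log2 differences of 0.67 and -0.40. ITGA2, a collagen receptor chain, was 1.94-fold lower (103 against 199 CPM), and NID2 3.77-fold lower from a low level (1.04 against 3.95 CPM).

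Interstitial matrix genes were higher with them, 13 of 19 tested against 2 lower. FN1, fibronectin (ENSG00000115414, chr2:215360440-215436172, minus strand), lay at 12539.5 to 18135 CPM (median 16691) on Transwells and 2542, 2590.2 and 2584 CPM in not polarized cells, 6.21-fold higher (log2 2.63 ± 0.13, adjusted p = 2.18e-09). FN1 alone took 1.2 to 1.82% of all counts on Transwells and 0.262 to 0.267% in not polarized cells. LOXL2, which cross-links collagen, was 7.77-fold higher, at 1425 to 1526 CPM (median 1465) against 189, 189 and 189.8 CPM. COL5A1 (3.99-fold, 249 against 62.4 CPM), COL6A2 (3.4-fold, 33 against 9.7 CPM), COL1A1 (2.67-fold, 35.8 against 13.4 CPM) and SPARC (1.41-fold, 814 against 578 CPM) followed. The transcription factors of mesenchymal transition in the same list did not follow: SNAI2 (Slug) was 4.58-fold lower, at 0.661 to 1.45 CPM (median 0.874) against 4.999, 3.62 and 4.82 CPM, and SNAI1 lower by log2 0.68 (2.58 against 4.14 CPM). ZEB1, ZEB2, VIM and CDH2 stayed below the filter in both groups. Of 12 fibroblast markers, 3 passed the filter and only COL1A1 was called, while PDGFRA and TCF21 had 0 reads.

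Genes of the actin cytoskeleton had 19 members higher and 5 lower of 42, among them MYL9 (1.81-fold), TPM1 (1.7-fold), the non-muscle myosin MYH9 (1.54-fold, 1655 against 1073 CPM) and filamin A (FLNA, 1.53-fold, 1539 against 1007 CPM). Against Transwell numbers 1 to 3 alone 12 were lower, and against numbers 4 to 6 alone 7. MYLK, which phosphorylates myosin light chains, was 1.6-fold lower (54.3 against 87.2 CPM). Among proteases and their inhibitors, 12 were higher and 11 lower of 29. ADAM12 was 9.77-fold higher (12.1 against 1.24 CPM), and MMP9 2.13-fold (37.9 against 17.8 CPM), against SERPINE2 above and ADAMTS1, 2.11-fold lower (36.1 against 76.1 CPM).

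**Figure D3:**
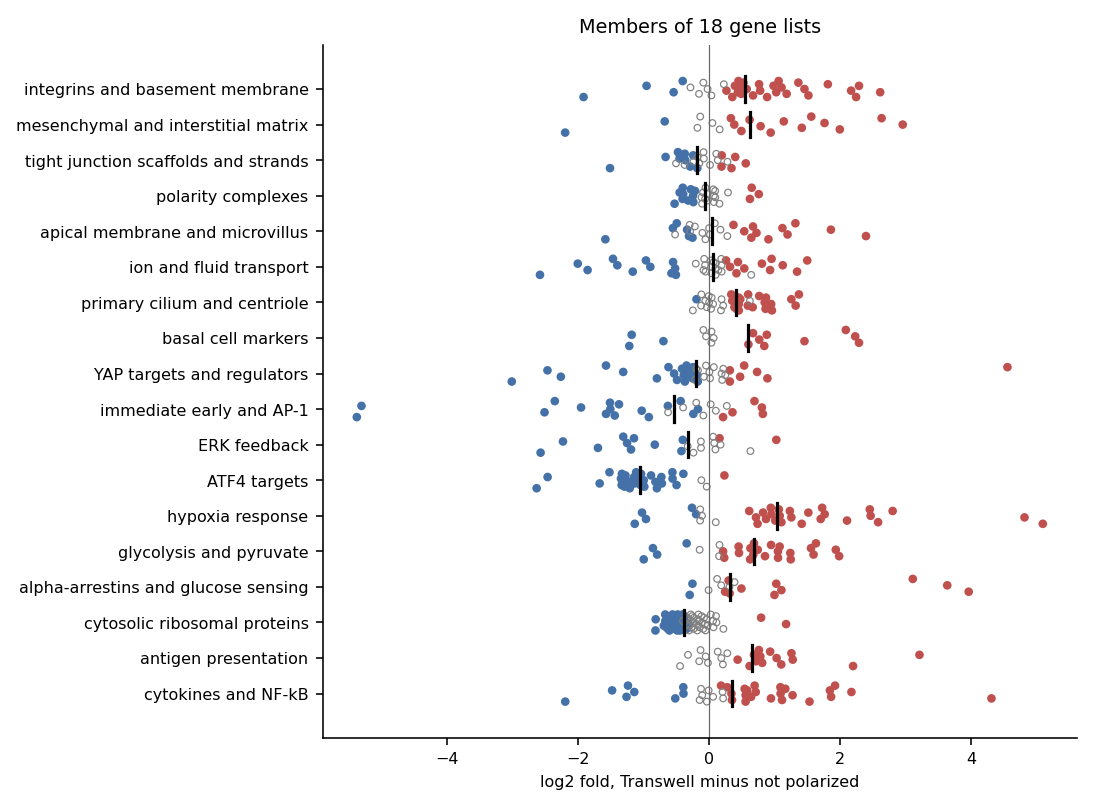
Log2 difference (Transwell minus not polarized) of every tested member of 18 gene lists, one point a gene. Red points were called higher and blue points lower at an adjusted p under 0.05, open points were not called, and black bars are list medians, for example -1.06 for ATF4 targets and 1.04 for hypoxia response genes, beside 0.02 for all tested genes.

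Basal cells, the stem cells of the airway, carry KRT5, KRT14, KRT17, COL17A1, ITGB4 and TP63. Of 17 tested basal markers, 9 were higher and 3 lower. KRT17 lay at 435 to 486 CPM (median 447) on Transwells and 96.2, 94.2 and 99.6 CPM in not polarized cells, 4.7-fold higher (log2 2.23 ± 0.066, adjusted p = 1.28e-11). KRT5 was 1.7-fold higher (44.1 against 25.9 CPM) and KRT14 4.25-fold from a low level (3.44 against 0.805 CPM). S100A2, also a basal marker, was 2.32-fold lower (3.77 against 8.77 CPM). Of the higher members, COL17A1, ITGB4, LAMB3 and CDH3 belong to the matrix and junction groups above, so they are counted in both places. Keratins of simple epithelia were divided: KRT7 was 1.99-fold lower (234 against 466 CPM) and KRT18 1.64-fold lower (638 against 1049 CPM), while KRT8, the partner of KRT18, was not called (2100.2 against 2343 CPM; lower without Transwell library 3, log2 -0.21, adjusted p = 0.0398) and KRT19 was 1.34-fold higher (1260.3 against 942 CPM). The hair keratin KRT81 was 2.65-fold lower, at 615 to 816 CPM (median 664) on Transwells against 1826, 1834 and 1895 CPM. Its reads may be shared with the near-identical KRT86, also lower (14.7 against 42.4 CPM).

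Genes of the primary cilium, the single sensory cilium of resting cells, were higher for 22 of 37 and lower for 1, with a median of 0.41. Examples were the transition zone genes TCTN2 (log2 1.32, 63.1 against 25.2 CPM) and TMEM67 (0.87), and the transport genes IFT57 (1.26, 27.9 against 11.7 CPM), IFT140 (0.86, 66.3 against 36.5 CPM) and IFT88 (0.85). IFT52, lower by log2 0.19, was the exception, and lost its call without not polarized library 2 or 3 (adjusted p = 0.0658 and 0.0848), which left 0 lower. Markers of motile, multiciliated cells were called for 10 higher and 3 lower of 19 tested, most of them at low levels. The best measured of those called were TP73 (log2 0.36, 56.6 against 44.1 CPM) and RFX3 (0.25, 21.1 against 17.8 CPM), both higher. DNAH5, a dynein arm heavy chain, was at 6.24 against 2.17 CPM and HYDIN at 7.76 against 3.41 CPM, but FOXJ1, the master regulator, was 3.4-fold lower (0.484 against 1.66 CPM), and C20orf85, SNTN and TEKT1 had 0 reads. Of 24 secretory and goblet cell markers, 7 passed the filter, 0 were higher and 3 lower, among them SLPI (log2 -0.51, 51.9 against 73.9 CPM). BPIFA1, MUC5AC and TFF3 had 0 reads. Squamous markers were lower for 10 and higher for 4 of 22, among them KLK6 (3.13-fold lower, 17.4 against 54.5 CPM), GRHL3 (2.4-fold lower, 9.18 against 22.1 CPM) and S100A8 (5.1-fold higher, 23.2 against 4.57 CPM).

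Immediate early genes are the first to be transcribed when growth factors or stress reach a cell, and their AP-1 proteins (FOS and JUN families) then switch on others. This group held the steepest falls. Of 28 tested, 16 were lower and 5 higher on Transwells, with a median log2 difference of -0.53. FOS (ENSG00000170345, chr14:75278774-75282230, plus strand) lay at 121, 122.8 and 126 CPM in not polarized cells and at 2.21 to 3.9 CPM (median 2.87) on Transwells, 41.6-fold lower (log2 -5.38 ± 0.13, adjusted p = 1.63e-12). FOSB fell likewise, from 37.9, 37.8 and 36 CPM to 0.498 to 1.6 CPM (median 0.7997), and EGR1 from 488, 502 and 513 CPM to 74.3 to 107 CPM (median 86.2), 5.7-fold. DUSP1, a phosphatase that ends MAP kinase signals, was 5.11-fold lower (11.7 against 60.01 CPM), IER2 2.84-fold (22.8 against 64.8 CPM), MYC 2.71-fold (35.3 against 95.7 CPM) and FOSL1 2.97-fold (18 against 53.7 CPM). Over the list, the libraries did not overlap for 20 of the 28 tested members, beside 46.5% of all tested genes. The 7 genes just given did not overlap either, but they were named by the size of their change or after their values were seen. For FOS, FOSB and EGR1 the rule that named them required this. FOSL2, another FOS family member, was 1.75-fold higher (301 against 172 CPM), MAFK 1.77-fold (81.1 against 45.9 CPM) and IER3 1.62-fold (168 against 104 CPM), so the family did not move as one.

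Promoter sequences of FOS and EGR1 are shown because both genes are known for control elements close to the start, the cAMP response element of FOS and the serum response elements (CArG boxes) of EGR1. Each is the 250 bases before the start in RefSeq (GRCh38.p14), read 5′ to 3′ on the gene's strand. For FOS (chr14:75278578-75278827, plus strand) capitals mark the letters TGACGT on either strand, and for EGR1 (chr5:138465229-138465478, plus strand) they mark CArG boxes.
FOS: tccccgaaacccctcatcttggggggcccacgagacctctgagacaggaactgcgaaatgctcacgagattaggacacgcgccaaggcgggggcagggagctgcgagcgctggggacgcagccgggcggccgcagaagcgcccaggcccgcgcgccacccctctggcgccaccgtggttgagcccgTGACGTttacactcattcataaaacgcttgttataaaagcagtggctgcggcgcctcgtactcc
EGR1: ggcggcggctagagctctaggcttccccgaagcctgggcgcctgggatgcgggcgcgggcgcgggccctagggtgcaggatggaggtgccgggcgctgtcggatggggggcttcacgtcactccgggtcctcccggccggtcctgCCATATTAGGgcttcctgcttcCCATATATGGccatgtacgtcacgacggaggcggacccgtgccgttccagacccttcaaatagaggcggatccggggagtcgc
The match in FOS began 64 bases before the start, and the 2 in EGR1 began 105 and 83 bases before it. RefSeq promoters of 300 bases (250 before to 50 after each start, 35116 in all) were found for 24 of the 30 members, and 9 of their 32 promoters (28.1%) held TGACGT, against 7.98% of all promoters. CArG boxes were in 3 of the 32 (9.38%; EGR1, EGR2 and SRF) and in 1.29% of all. A match of letters is a description of the sequence and not a bound site.

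ERK feedback genes, which are switched on by the ERK kinases and restrain them, pointed the same way: 10 of 21 tested were lower and 2 higher (1 higher without Transwell library 1, 2 or 6 or any 1 not polarized library). DUSP6, the cytoplasmic ERK phosphatase, lay at 14.1, 12.1 and 12.6 CPM in not polarized cells and 1.71 to 2.45 CPM (median 2.23) on Transwells, 5.94-fold lower (log2 -2.57 ± 0.13, adjusted p = 2.11e-09). DUSP4 was 4.69-fold lower (10.9 against 51.1 CPM), the Sprouty genes SPRY2 3.24-fold (10.4 against 33.8 CPM) and SPRY4 2.21-fold (9.19 against 20.4 CPM), and the ETS factors ETV5 and ETV4 2.28-fold and 1.78-fold. Ligands of the EGF receptor were divided. EREG was 2.64-fold lower (45.6 against 121 CPM), AREG 2.46-fold (57.4 against 141 CPM) and HBEGF 2.3-fold (15.7 against 36.1 CPM), whereas TGFA, also a ligand, was 1.15-fold higher (355 against 310.2 CPM, adjusted p = 0.0243), a call that was lost without any 1 of the not polarized libraries (adjusted p between 0.0667 and 0.116). The receptors EGFR (1.94-fold higher, 1177 against 605 CPM) and ERBB2 (1.42-fold, 267 against 188 CPM) and the inactive rhomboid RHBDF2 (2.51-fold, 95.8 against 38.2 CPM) were higher.

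YAP is the transcriptional co-activator that the Hippo kinases hold out of the nucleus in crowded cells, and with the TEAD factors it drives genes such as CTGF, CYR61 and ANKRD1. Of 40 tested targets and regulators, 21 were lower and 7 higher, with a median log2 difference of -0.21. CTGF, now named CCN2 (ENSG00000118523, chr6:131948176-131951373, minus strand), lay at 229, 233 and 232 CPM in not polarized cells and 43.6 to 52 CPM (median 48.7) on Transwells, 4.8-fold lower (log2 -2.26 ± 0.065, adjusted p = 9.36e-12). ANKRD1 fell from 9.2, 8.44 and 8.77 CPM to 0.771 to 1.39 CPM (median 1.08), and NT5E, the surface enzyme CD73, was 5.53-fold lower (30.9 against 171 CPM). CYR61, the third textbook target, was only 1.29-fold lower (686 against 886 CPM, adjusted p = 1.19e-04). The kinase LATS2 was 1.45-fold higher (204 against 140.4 CPM), and YAP1 itself 1.25-fold higher (1399 against 1123 CPM). Other Hippo kinases did not follow LATS2: STK3 (log2 -0.39) and STK4 (-0.18, adjusted p = 0.0436) were lower, and LATS1 was not called (-0.17). Since the list holds both YAP targets and kinases that restrain YAP, its counts carry no single direction. TEAD1 and TEAD4 were lower by log2 0.53 and 0.49. IGFBP3, also counted in this list, went strongly the other way, as did TGFB2 (1.85-fold, 24 against 12.9 CPM) and CRIM1 (1.66-fold, 374 against 225 CPM). Against Transwell numbers 4 to 6 alone, 11 members were higher and 19 lower.

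The CTGF promoter (chr6:131951373-131951622, minus strand, RefSeq, GRCh38.p14, the 250 bases before the start) is shown because it is a standard reporter of YAP and TEAD, with capitals at the TEAD core letters GGAATG on either strand.
CTGF: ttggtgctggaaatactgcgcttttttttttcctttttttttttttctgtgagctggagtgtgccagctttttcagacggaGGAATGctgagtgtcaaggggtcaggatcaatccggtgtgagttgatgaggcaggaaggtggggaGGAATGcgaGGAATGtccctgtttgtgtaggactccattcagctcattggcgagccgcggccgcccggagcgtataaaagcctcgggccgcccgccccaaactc
It held 3 matches, which began 169, 104 and 95 bases before the start. Among 45 promoters of 32 members, 13 (28.9%) held GGAATG, CTGF and ANKRD1 among them, against 14.0% of all promoters.

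The ATF4 group had the largest share of tested members called in 1 direction among the 54 lists. ATF4 is the transcription factor of the integrated stress response, made when amino acids run short or the endoplasmic reticulum is strained, and it raises genes that make serine, glycine and asparagine, import amino acids and charge transfer RNAs. Of 32 members tested, 29 were lower on Transwells, 1 was higher and 2 were not called, with a median log2 difference of -1.06. At least 2-fold lower were 18, where 3.28% of all tested genes were. PSAT1, of serine synthesis (ENSG00000135069, chr9:78297143-78330093, plus strand), lay at 486, 466 and 459 CPM in not polarized cells and 69.8 to 86.2 CPM (median 74.7) on Transwells, 6.2-fold lower (log2 -2.63 ± 0.069, adjusted p = 4.99e-12), the lowest of the list. The other serine enzymes PHGDH (177 against 413 CPM) and PSPH (18.4 against 46.6 CPM) were 2.33-fold and 2.52-fold lower. In mitochondrial folate metabolism, ALDH1L2 lay at 77.6, 74.8 and 79.6 CPM against 11.4 to 17.7 CPM (median 13.6) on Transwells, 5.52-fold lower, SHMT2 2.31-fold (122.6 against 284 CPM) and MTHFD2 2.21-fold (227 against 502 CPM). The transsulfuration pathway was represented by CTH, 3.18-fold lower (6.31 against 20.04 CPM).

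Transfer RNA synthetases followed: SARS, for serine, was 2.87-fold lower (89 against 255 CPM), and WARS, for tryptophan, 2.51-fold (87.7 against 221 CPM). The cystine importer SLC7A11 was 2.1-fold lower (61.2 against 129 CPM), TRIB3 2.05-fold (103 against 212 CPM), the ATF4 partner CEBPG 2.48-fold (63.6 against 158 CPM) and CHAC1, which breaks down glutathione, 2.45-fold (14.8 against 36.1 CPM). ASNS, asparagine synthetase, was lower by less, 1.47-fold (5.19 against 7.63 CPM), and ATF4 itself 1.65-fold (379.9 against 625 CPM). The exceptions were ATF5, 1.18-fold higher (24.6 against 20.9 CPM) but not called without Transwell library 4 or 6 or not polarized library 1 or 3 (adjusted p between 0.051 and 0.176, with 0 members higher), SLC7A1 (396 against 429.7 CPM, adjusted p = 0.285) and NUPR1 (0.596 against 0.608 CPM, adjusted p = 0.946). Neither within Transwell numbers 1 to 3 alone (30 lower) nor 4 to 6 alone (28 lower) did the count of lower members move by much. Genes of the unfolded protein response, another arm of stress signalling, did not go with them: 4 were higher and 6 lower of 25, and PDIA4 was 1.61-fold higher (894 against 554 CPM).

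CHAC1 and ASNS promoters are shown for the composite element that ATF4 binds with C/EBP partners. ASNS has 2 promoters in RefSeq, and the one shown was picked by its number of matches. They are the 250 bases before the start (RefSeq, GRCh38.p14; CHAC1 chr15:40953221-40953470, plus strand, ASNS chr7:97872409-97872658, minus strand), with capitals at TGATGNAA on either strand.
CHAC1: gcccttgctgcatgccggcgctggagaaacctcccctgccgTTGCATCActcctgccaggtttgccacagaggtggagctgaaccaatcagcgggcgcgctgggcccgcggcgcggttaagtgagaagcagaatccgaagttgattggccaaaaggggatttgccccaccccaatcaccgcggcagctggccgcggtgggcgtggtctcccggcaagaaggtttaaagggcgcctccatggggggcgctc
ASNS: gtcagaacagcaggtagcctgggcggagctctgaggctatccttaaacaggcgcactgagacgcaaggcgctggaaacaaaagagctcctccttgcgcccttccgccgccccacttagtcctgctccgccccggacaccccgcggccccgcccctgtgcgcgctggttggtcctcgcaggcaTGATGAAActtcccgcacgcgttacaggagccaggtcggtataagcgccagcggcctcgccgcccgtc
The matches began 209 bases before the start in CHAC1 and 68 bases before it in ASNS. Promoters were found for 24 of the 32 members, and 8 of their 42 promoters (19.0%) held TGATGNAA, against 3.62% of all promoters. PSAT1 was not among the 8, which says only that these letters are not in that window.

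Hypoxia response genes are raised by the HIF factors when oxygen falls and HIF is no longer hydroxylated by the EGLN enzymes. Their median was the highest of the lists with at least 10 tested members: 25 of 34 tested were higher and 5 lower on Transwells, with a median log2 difference of 1.04, and 18 were at least 2-fold higher, where 8.81% of all tested genes were. EGLN3, an oxygen sensor that HIF itself raises (ENSG00000129521, chr14:33924231-34462774, minus strand), lay at 0.682, 1.03 and 0.94 CPM in not polarized cells and 25.5 to 34.1 CPM (median 31.4) on Transwells, 34.2-fold higher (log2 5.10 ± 0.17, adjusted p = 4.33e-11). ANGPTL4, an inhibitor of lipoprotein lipase, rose from 1.65, 1.3 and 2.005 CPM to 41.3 to 59.6 CPM (median 44.1). NDRG1, a stress-induced growth regulator, rose from 109, 105 and 108 CPM to 702 to 843 CPM (median 732), 6.98-fold. Higher too were ERO1A, an oxidase of protein folding (5.53-fold, 1639.6 against 297 CPM), HILPDA, a lipid droplet protein (5.48-fold, 69.7 against 12.7 CPM), the collagen hydroxylases P4HA1 (4.31-fold, 527 against 122 CPM) and PLOD2 (2.86-fold, 715 against 249.9 CPM), ANKRD37 (5.98-fold, 13.6 against 2.28 CPM) and adrenomedullin, ADM (3.31-fold, 81.2 against 24.5 CPM).

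The group was not uniform. HIF1A, the oxygen-regulated subunit, was 2.03-fold lower (100.95 against 205 CPM), STC2 2.19-fold lower (69.5 against 153 CPM), and VEGFA, a textbook target, 1.2-fold lower (139.7 against 167 CPM, adjusted p = 0.0281). VEGFA lost its call without Transwell library 1 or any 1 not polarized library (adjusted p between 0.0597 and 0.0945), and the lower members then numbered 3, 2 and 2 without not polarized library 1, 2 and 3. CA9, often used as a marker of hypoxia, did not pass the filter, with 32 reads over the 6 Transwell libraries and 0 over the 3 others. Within Transwell numbers 1 to 3 alone and 4 to 6 alone the count of higher members was 25 each time. Oxygen at the cells was not measured.

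**Figure D4:**
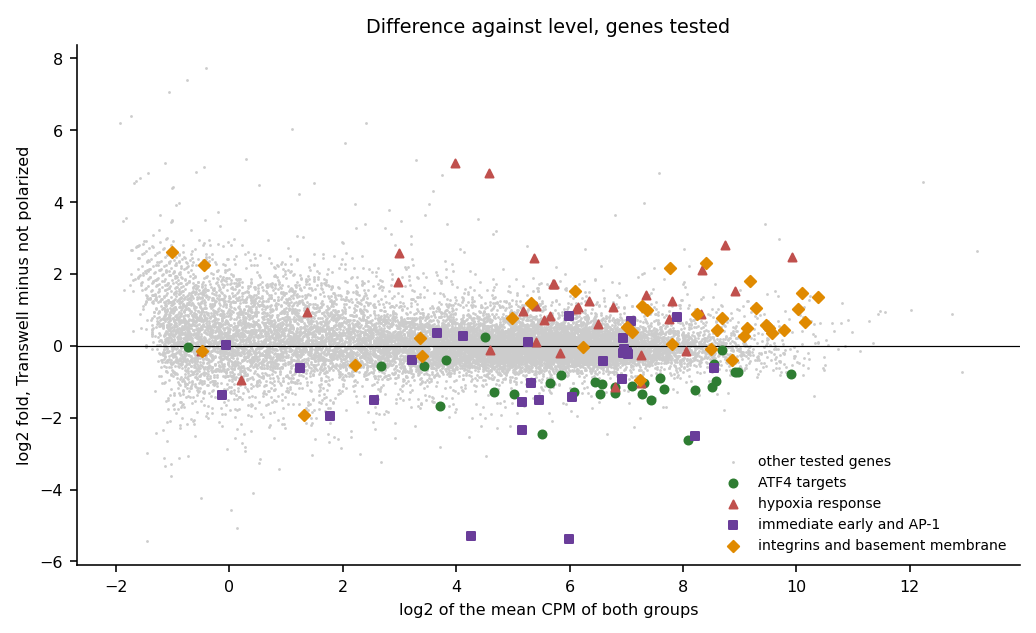
Log2 difference (Transwell minus not polarized) of each tested gene against the log2 of its mean CPM in both groups. ATF4 targets (circles) lie below 0 with 1 called exception, most hypoxia response genes (triangles) and integrin and basement membrane genes (diamonds) above it, and FOS and FOSB are the 2 squares under -5.

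The ANKRD37 promoter (chr4:185396591-185396840, plus strand, RefSeq, GRCh38.p14, the 250 bases before the start) is shown as a short promoter with the HIF core letters ACGTG, in capitals on either strand.
ANKRD37: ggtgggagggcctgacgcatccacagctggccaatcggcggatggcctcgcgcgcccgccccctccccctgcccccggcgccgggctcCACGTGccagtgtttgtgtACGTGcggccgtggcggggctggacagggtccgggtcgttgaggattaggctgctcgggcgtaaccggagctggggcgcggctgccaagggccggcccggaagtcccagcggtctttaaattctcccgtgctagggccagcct
It held 3 matches, 2 of which overlap in the letters CACGTG and began 162 and 161 bases before the start, and the third began 143 bases before it. Of 39 promoters of 29 members, 23 (59.0%) held ACGTG, against 21.4% of all promoters, and 9 (23.1%) held the longer TACGTG, against 3.24%. The shorter motif is contained in the longer one.

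Many glycolysis genes are HIF targets too, and 21 of 28 tested were higher and 4 lower, with a median of 0.68. HK2, the inducible hexokinase, lay at 318 to 492 CPM (median 403) on Transwells against 122, 126 and 138 CPM, 3.1-fold higher (log2 1.63 ± 0.13, adjusted p = 2.92e-07). PGK1 was 2.36-fold higher (796 against 337 CPM), LDHA, which makes lactate, 2.11-fold (1521 against 720.2 CPM), PDK1, which keeps pyruvate out of mitochondria, 3.02-fold (91.5 against 30.2 CPM), ENO2 2.94-fold (91.6 against 31.1 CPM), PFKFB4 3.96-fold (32.1 against 8.09 CPM) and the lactate exporter SLC16A3 1.93-fold (505 against 262 CPM). LDHB, the other lactate dehydrogenase, was 1.73-fold lower (10.9 against 18.9 CPM), as were PCK2 (1.996-fold, 58.1 against 116 CPM) and PFKFB2 (1.81-fold, 36 against 65.2 CPM).

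Among glucose transporters with a mean of at least 1 CPM, SLC2A3 rose most. SLC2A3 (GLUT3), a high-affinity glucose carrier, lay at 1130.4 to 1429 CPM (median 1282) on Transwells and 123.04, 119.7 and 119 CPM in not polarized cells, 10.5-fold higher (log2 3.40 ± 0.089, adjusted p = 4.99e-12). SLC2A1 (GLUT1) was 1.58-fold higher (614 against 389 CPM). Reads of SLC2A3 may be shared with the near-identical SLC2A14, which was low (ratio 4.07, counting interval 2.58 to 6.73). In all, 8 of 12 tested were higher and 3 lower.

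Alpha-arrestins remove such transporters from the surface, and TXNIP and ARRDC4 are raised by glucose through the MondoA and ChREBP factors. TXNIP (ENSG00000265972, chr1:145992435-145996600, minus strand) lay at 18.7, 19.6 and 19.2 CPM in not polarized cells and 224 to 364 CPM (median 295) on Transwells, 15.6-fold higher (log2 3.96 ± 0.16, adjusted p = 4.63e-10). ARRDC3 rose from 16.1, 15.8 and 17.7 CPM to 181 to 266 CPM (median 197), 12.4-fold, and ARRDC4 was 8.64-fold higher (45.1 against 5.21 CPM). ARRDC2 was higher by log2 0.49 (30.7 against 21.8 CPM). Of 17 tested members of the list, 10 were higher and 2 lower (1 lower without not polarized library 3). Both groups are labelled as normal glucose. Glucose in the medium at harvest was not measured.

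The TXNIP promoter (chr1:145996580-145996829, minus strand, RefSeq, GRCh38.p14, the 250 bases before the start) is known for its carbohydrate response element, a pair of E-box-like elements, and capitals mark CACGNG on either strand. TXNIP has 2 promoters in RefSeq, and the one shown was picked by its number of matches.
TXNIP: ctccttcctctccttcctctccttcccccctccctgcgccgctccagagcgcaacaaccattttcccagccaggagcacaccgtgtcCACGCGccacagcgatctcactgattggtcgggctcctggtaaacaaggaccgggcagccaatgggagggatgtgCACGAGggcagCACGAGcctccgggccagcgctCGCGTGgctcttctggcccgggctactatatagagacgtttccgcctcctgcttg
The 4 matches began 163, 88, 77 and 55 bases before the start. CACGNG, which takes in the E-box CACGTG, is short and common: 17 of 25 promoters of 16 members (68.0%) held it, and 30.5% of all promoters.

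Mitochondrially encoded genes were higher for 9 of 13, with a median of 0.48, while nuclear genes of the respiratory chain had 10 higher and 21 lower of 92 and a median of -0.07. MT-CO1, of complex IV, was 1.83-fold higher (8920.3 against 4863 CPM) and MT-ND5, of complex I, 2.61-fold (1746 against 670.2 CPM). Strand handling in the counting is not given, so reads of MT-ND5 and of MT-ND6, which lie on opposite strands, may mix. The nuclear count depended on the library set: 38 were higher and 18 lower against Transwell numbers 1 to 3 alone, and 8 higher and 53 lower against numbers 4 to 6 alone. The higher members numbered 6, 2 and 5 without not polarized library 1, 2 and 3.

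Cytosolic ribosomal protein genes were lower for 42 and higher for 2 of 77, with a median of -0.39. RPL3 was 1.76-fold lower (802 against 1414 CPM), RPS6 1.61-fold (501 against 808 CPM) and RPLP0 1.53-fold (928 against 1417 CPM). Here too the sets differed, with 40 lower and 12 higher against numbers 1 to 3 alone, and 70 lower and 2 higher against numbers 4 to 6 alone. GAS5, a non-coding RNA whose turnover depends on translation, was 3.26-fold lower, at 89.4 to 122 CPM (median 92.8) on Transwells against 322, 316 and 321 CPM. Heat shock chaperones were lower for 11 and higher for 1 of 21, among them HSPD1 (1.98-fold, 256 against 508 CPM) and HSPH1 (1.71-fold, 140.4 against 241 CPM). Targets of NRF2, the factor of oxidant defence, were lower for 16 and higher for 3 of 30, including GCLC (1.94-fold, 29.8 against 57.7 CPM) and NQO1 (1.72-fold, 83.6 against 143 CPM).

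Class I antigen presentation genes were higher wherever they were called: 14 of 24 were higher and 0 lower, with a median of 0.65. HLA-B (2.43-fold, 1692 against 698 CPM) and HLA-C (2.15-fold, 818 against 381 CPM) share long stretches of sequence, so reads may be divided among them. Their light chain B2M was 1.91-fold higher (3948 against 2068 CPM), the loading chaperone TAPBP 2.04-fold (525 against 257 CPM) and the peptide transporter TAP1 1.76-fold (258 against 147 CPM). Interferon-stimulated genes as a whole were mixed, with 18 higher and 10 lower of 45 and a median of 0.08. IFI6 was 2.13-fold higher (58.2 against 27.2 CPM), while HERC6 (1.6-fold, 30.7 against 49.2 CPM) and PLSCR1 (1.39-fold, 86.5 against 120.03 CPM) were lower. The lower members numbered 6, 6 and 4 without not polarized library 1, 2 and 3.

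Cytokine and NF-kB genes were higher for 22 and lower for 8 of 38. CCL2, which draws monocytes, lay at 0.852, 1.35 and 1.25 CPM in not polarized cells and 18.7 to 26.7 CPM (median 22.7) on Transwells, 19.9-fold higher. CCL5 (4.51-fold, 295 against 65.4 CPM), the adhesion molecule ICAM1 (3.8-fold, 233 against 61.4 CPM), BIRC3 (2.9-fold, 1170.4 against 404 CPM) and IL32 (2.42-fold, 355 against 147 CPM) were higher. CXCL2, IL1A and IL6 were lower, by log2 1.24, 0.52 and 0.39, and CXCL1, close to CXCL2 in sequence, was 2.13-fold higher (187 against 87.9 CPM). Complement C3 was 2.59-fold higher (1183 against 456 CPM), and the proteases C1R and C1S of its classical pathway 4.09-fold (17.2 against 4.17 CPM) and 8.24-fold (16.5 against 1.995 CPM).

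Notch signalling, which sets secretory against ciliated fate in the airway, showed its receptor NOTCH3 higher 6.44-fold, at 369 to 500.3 CPM (median 463) on Transwells against 69.9, 69.7 and 69.2 CPM (log2 2.69 ± 0.11, adjusted p = 3.43e-10). The ligands JAG2 (2.83-fold, 115 against 40.4 CPM) and DLL1 (3.48-fold, 88.5 against 25.4 CPM) were higher too, while the target HES1 was 2.8-fold lower (33.7 against 94.6 CPM). Over the list, 8 were higher and 3 lower of 24 (1 lower without not polarized library 1). In the TGF-beta and BMP list, 18 were higher and 6 lower of 34. Extracellular antagonists led it: chordin (CHRD, 4.38-fold, 14.1 against 3.23 CPM), noggin (NOG, 3.15-fold, 55.2 against 17.6 CPM) and FSTL3 (3.66-fold, 136 against 37.3 CPM) were higher, next to the ligand BMP6 (3.74-fold, 22.4 against 5.97 CPM), and follistatin (FST) was 3.24-fold lower (2.78 against 9.01 CPM). Wnt genes had 11 higher and 10 lower of 34, beside 26% and 24% of all tested genes. Among them were WNT4 (3.06-fold higher, 65.6 against 21.4 CPM) and the antagonist DKK1 (3.1-fold lower, 9.94 against 30.8 CPM).

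Proliferation genes did not move as a group. Of 38 tested genes of G2 and mitosis, 8 were higher and 8 lower, with a median of -0.03, shares of the same order as for all genes. MKI67, the proliferation antigen, lay at 425 to 652 CPM (median 574) on Transwells and 459.8, 479.5 and 485 CPM in not polarized cells and was not called (log2 0.22 ± 0.12, adjusted p = 0.136). MKI67 was higher without Transwell library 2 (log2 0.28, adjusted p = 0.0114) and against Transwell numbers 4 to 6 alone (log2 0.40, adjusted p = 8.47e-08). ASPM, a spindle protein, was 1.64-fold higher (182 against 110.4 CPM) and FOXM1, a factor of mitotic genes, 1.4-fold lower (117 against 164 CPM). The count was 13 higher and 14 lower against Transwell numbers 1 to 3 alone, and the lower members numbered 5 without Transwell library 1 or any 1 not polarized library. Replication genes had 8 higher and 18 lower of 47, with RRM2 1.51-fold lower (207 against 313 CPM), and 5 higher without not polarized library 1. CCND1, the cyclin that growth factors raise in G1, was 3.24-fold lower, at 87.4 to 104 CPM (median 91.9) on Transwells against 305, 310.4 and 298 CPM, and GADD45A 2.48-fold (51.9 against 129 CPM).

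All 23 Transwell libraries of the series, WT and CF, in 5.5 or 17.5 mM glucose, were also set against the 3 not polarized ones. The CF cells carry DeltaF508 CFTR and are a gene-edited derivative of the line. These comparisons share the not polarized libraries, and the WT normal glucose libraries are those described above, so they are given side by side only. In a fit over all 26 libraries with 17036 genes tested, the not polarized libraries lay outside the whole range of the 23 for 4584 genes (26.9%), with 2030 genes higher and 2554 lower in all 23. FOS was at 1.69 to 4.25 CPM over the 23 and 119.8 to 125 CPM in not polarized cells. PSAT1 lay at 29.5 to 102 against 454 to 479.8 CPM, FN1 at 10253 to 18762 against 2511 to 2563 CPM, and EGLN3 at 18 to 36.7 against 0.673 to 1.02 CPM. TXNIP varied most among the Transwell groups, with means of 293 and 251 CPM in 5.5 mM (WT and CF) and 671 and 952 CPM in 17.5 mM, all above the 19 CPM of not polarized cells.

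**Figure D5:**
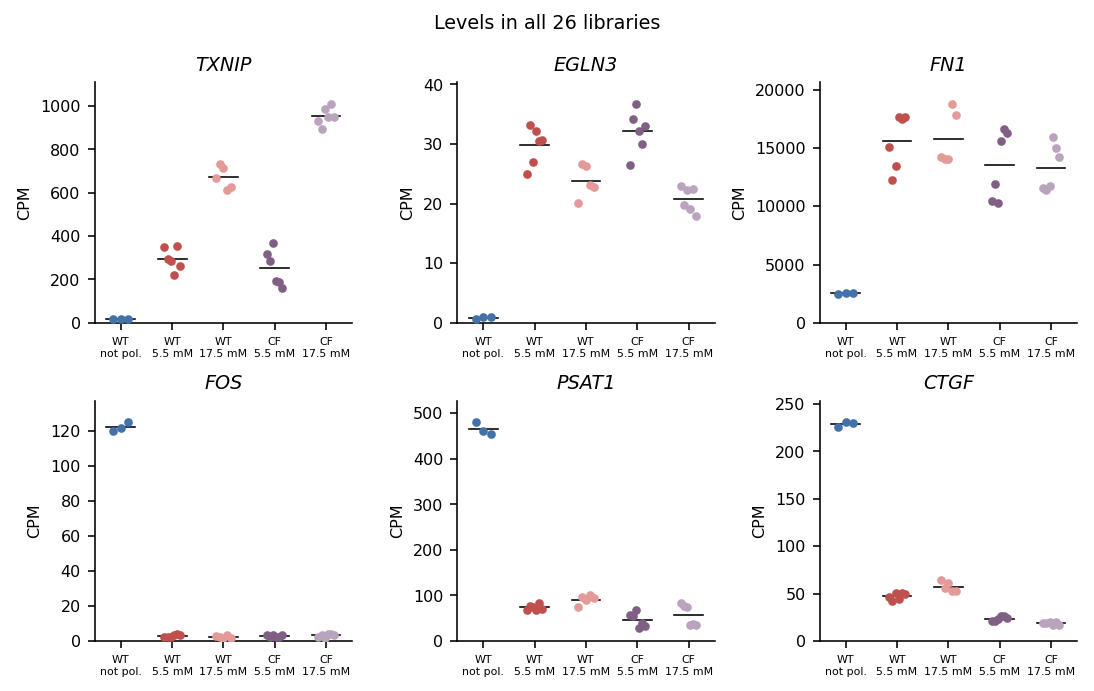
Level in CPM (axes start at 0) of 6 genes in all 26 libraries, by group: WT not polarized, then WT and CF cells on Transwells in 5.5 or 17.5 mM glucose, with group means as bars. For each of the 6 genes the 3 not polarized libraries lie outside the range of the 23 Transwell libraries.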

How the data were processed

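Messenger RNA captured with poly-T beads was sequenced, per the labels' protocols, and aligned with HISAT2 to hg38, per the submitters' processing notes. Not given in the sources used here: the aligner's version, the counting tool and the strand setting. Overlapping genes on opposite strands may therefore share counts. The authors deposited unnormalized counts for each gene, and a second table of FPKM, which the authors corrected for gene length and library size. All 58735 gene identifiers matched GENCODE release 29 on GRCh38.

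The counts of the 9 libraries went through edgeR 4.0.16 in R 4.3.3. Genes were kept with filterByExpr (groups as the design; at least 10 counts in enough libraries and 15 in total). TMM normalization came before a quasi-likelihood fit with robust dispersion, and Benjamini-Hochberg adjustment over all 16105 genes tested, called at an adjusted p under 0.05. Every p-value in the text is from that fit unless another tool, a left-out library or a subset of libraries is named. Alternatives were DESeq2 1.42.0, RLE factors, other filters, limma 3.58.1 on log2 FPKM plus 1 or 0.1, a test against 1.5-fold, all 26 libraries in 1 fit, a replicate block, subsets of genes or libraries, and each library left out in turn. On simulated counts with the same library sizes (15824 genes), 64.2% of 67 genes changed 1.5-fold, 80.6% of 67 changed 2-fold and 95.5% of 66 changed 4-fold were recovered, with 10 false calls. Only these genes were changed, up or down at random, and the counts were drawn from the fitted dispersions. In the data 50% of tested genes were called, so recovery and false calls there may differ.

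The comparison, the 54 gene lists and the rule for named genes were chosen with earlier results of these data known. The rule took the 15 highest and 15 lowest called protein-coding genes (5 CPM or more on average in either group, no overlap), up to 4 called members with a mean of at least 1 CPM per list, and fixed genes such as CFTR, CDH1, TJP1, TXNIP and CTGF. Other members were named after their values were seen. Library numbers were not taken as pairs: residuals of libraries with the same number correlated at r = 0.0186, -0.0447 and 0.0122 across genes, which are not independent. No 2 libraries were identical. Promoters and motif searches used RefSeq tables of GRCh38.p14, 250 bases before to 50 after each start. Where a gene had several promoters, the sequence shown was picked by its number of matches. Depth limits small counts, and intervals cover counting error only, since the reads carry no molecular identifiers in the deposited tables.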

Additional observations from a re-analysis of the deposited data

Results flagged for a closer look

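Of the tested genes named in the text, 271 were screened for an outlying library. In 15 of them, 1 of the 6 Transwell libraries stood apart from the other 5 (a gap to its nearest neighbour above Dixon's 95% critical value). Chance alone flags about 1 in 20 such groups, a share close to 15 of 271. In Transwell library 2, ANGPTL4 was at 59.6 CPM (others 41.3 to 47.0), HMGCS1 at 140.6 CPM (others 167 to 181), ARRDC3 at 266 CPM (others 182 to 209), GAS5 at 122 CPM (others 89.4 to 99.2), MTHFD2 at 255 CPM (others 216 to 227) and NOG at 69.2 CPM (others 48.0 to 55.5). In library 4, C1R was at 11.6 CPM (others 16.4 to 19.2), CGNL1 at 2.73 CPM (others 1.38 to 1.87), COL6A2 at 24.3 CPM (others 32.5 to 35.95), MYO7B at 6.75 CPM (others 3.75 to 4.6) and NECTIN2 at 219.9 CPM (others 234 to 243). ITGA5 at 376 CPM (others 349 to 359) and PANX2 at 53.2 CPM (others 48.1 to 50.01) stood apart in library 5, KRT86 at 19.8 CPM (others 12.4 to 14.98) in library 3, and CFTR at 680.2 CPM (others 713 to 729) in library 6. CFTR was not called, and the 14 other genes kept their call without that library.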

How the results depend on the processing

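With 8047 genes called as reported, the count ran from 6666 to 8406 when each library was left out in turn, was 8234 with DESeq2, 8086 with RLE factors, 7243 with limma on log2 FPKM plus 1, and 8984 and 9151 against Transwell numbers 1 to 3 and 4 to 6 alone. A test against 1.5-fold called 1792 genes (1219 higher and 573 lower). Against 1947 genes called at 2-fold or more as reported, limma on log2 FPKM plus 1 called 520, and 501 with no filter, since the added 1 shrinks differences of low genes. Leaving out each library gave 1827 to 1997. The fit with a replicate block called 8885 genes, 7229 of them also called as reported. For genes that were not called, NUPR1 turned to log2 0.104 against Transwell numbers 1 to 3 alone and to 0.0814 with the replicate block. Leaving out each library moved it from -0.183 to 0.23, above 0 without Transwell library 1 or 5 or not polarized library 2. SLC7A1 turned to 0.0234 against numbers 4 to 6 alone. The cause was not tested. Counts of lower ATF4 targets ran from 23 to 30 over the alternatives and of higher hypoxia genes from 21 to 26, the lowest being those of the test against 1.5-fold. GC content and length together accounted for 2.79% of the variance of the log2 differences. With 3 not polarized libraries, differences under 2-fold were recovered less often on simulated counts than larger ones.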

Other observations

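Some groups not described above follow, to be read against the 26% higher and 24% lower of all tested genes. Cholesterol synthesis and uptake genes were higher for 15 and lower for 3 of 25 tested. SQLE, squalene epoxidase, was 1.49-fold higher (161 against 108 CPM) and HMGCS1, which makes HMG-CoA, 1.37-fold (169 against 124 CPM), while FDFT1 was 1.29-fold lower (179 against 232 CPM). Fatty acid and lipid droplet genes were divided, 13 higher and 15 lower of 38, with SCD 1.32-fold higher (533 against 405 CPM) and CPT1A, which admits fatty acids to mitochondria, 1.71-fold lower (75.3 against 129 CPM). Xenobiotic and retinoid genes had 7 higher and 12 lower of 34 (4 higher without not polarized library 1 or 3). CYP1B1 was 1.84-fold higher (448 against 243 CPM), and ALDH1A3, which makes retinoic acid, 1.56-fold lower (146 against 228 CPM).

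The list of epithelial identity genes holds transcription factors and others such as EPCAM and the protease ST14. Of 23 tested, 4 were higher and 10 lower. CEBPD was 2.81-fold higher (45.5 against 16.2 CPM), and KLF4 1.89-fold (84.1 against 159 CPM), CEBPB 1.85-fold (135 against 249.9 CPM) and SOX9 1.82-fold lower (59.5 against 108 CPM). MALAT1, a nuclear RNA, was 2.18-fold higher (336 against 154 CPM). Some markers of other cell types were measured. Of 15 leukocyte markers 3 passed the filter, 2 higher and 1 lower, with CSF1R at 31.2 against 12.2 CPM and ITGAM at 6.64 against 1.53 CPM. Of 10 endothelial markers 5 did, with 1 higher (EGFL7, 90.1 against 56.7 CPM) and 3 lower, among them KDR, 3.75-fold lower (9.01 against 33.9 CPM). CD3D and ERG had 0 reads.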
